A study of Rattus norvegicus with 10 samples.

Results

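The 8 factors described here are the myocyte enhancer factor genes Mef2a, Mef2c and Mef2d, the serum response factor gene Srf, the myocardin-family coactivator genes Myocd, Mrtfa and Mrtfb, and the muscle methyltransferase gene Smyd1. They were chosen by gene name, and all 8 were found, each on 1 row, among the 39784 gene names of the RNA-seq tables. The libraries came from neonatal rat cardiomyocytes, the contractile cells of the newborn heart, which the labels describe as wild type and cultured with fetal bovine serum. One group received Ad-Xon-YAP5SA and overexpressed YAP5SA, an activated form of the transcriptional coactivator YAP whose inhibitory serines are changed to alanine, and the other received Ad-Xon-YAP5SA-S94A, which adds a change that disrupts binding to the TEAD factors. Each group held 2 libraries, called biological replicates in the labels without a statement of separate cultures, so p-values measure the spread between these libraries. The age in days, the promoter of the construct and the induction schedule are not given in the sources used here. With no GFP or uninfected RNA-seq library among those used, a difference between the 2 forms leaves the untreated level unknown.

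MEF2 proteins and SRF belong to the MADS-box class of transcription factors. MEF2 proteins bind an A/T-rich site in front of many muscle genes and are held in check by class IIa histone deacetylases, which calcium-dependent kinases drive out of the nucleus. SRF binds the CArG box, and its output depends on the partner it recruits. The ternary complex factors such as ELK1 respond to ERK signalling and serve growth-induced immediate-early genes, while the myocardin-related factors MRTF-A and MRTF-B are retained in the cytoplasm by monomeric actin and serve cytoskeletal genes when actin polymerizes. Myocardin itself is nuclear and restricted to heart and smooth muscle. SMYD1 is a methyltransferase of heart and skeletal muscle needed for myofibril assembly, and its gene is a known MEF2C target.

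The promoters of Srf and Mef2a are shown because each holds, just in front of the start of its own gene, the kind of site its own protein family binds. RefSeq promoter windows (build GRCr8, used for sequence only, while gene coordinates below are rn7) were found for 6 of the 8 genes, all but Mef2c and Myocd, and the 250 bases upstream of the start were read 5′ to 3′ on the gene's strand. Capitals mark matches to the CArG box in Srf (chr9:21923826-21924075, plus strand) and to the MEF2 box in Mef2a (chr1:130392163-130392412, minus strand).
Srf: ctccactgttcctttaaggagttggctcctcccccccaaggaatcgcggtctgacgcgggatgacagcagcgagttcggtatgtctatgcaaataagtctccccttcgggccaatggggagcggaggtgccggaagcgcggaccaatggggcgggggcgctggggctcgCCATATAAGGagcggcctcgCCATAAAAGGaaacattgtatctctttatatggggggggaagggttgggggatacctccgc
Mef2a: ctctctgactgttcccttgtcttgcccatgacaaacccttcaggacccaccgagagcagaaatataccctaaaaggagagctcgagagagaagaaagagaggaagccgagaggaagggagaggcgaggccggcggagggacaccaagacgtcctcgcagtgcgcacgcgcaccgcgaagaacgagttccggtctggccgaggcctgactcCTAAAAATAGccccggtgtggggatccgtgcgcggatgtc
The 2 CArG boxes of Srf began 81 and 61 bases before the start, and the MEF2 box of Mef2a began 40 bases before it. No match to either box was found in these windows of Mef2d, Mrtfa, Mrtfb or Smyd1, and none of the 6 windows held the TEAD-binding MCAT motif, searched as GGAATG on either strand. A CArG box was present in 1.5% of 27457 such windows, a MEF2 box in 3.07% and an MCAT motif in 11.8%. Among the 10491 genes with a window that were tested below, the shares were 1.24%, 1.61% and 10.1%.

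Of the factors, Smyd1 and Mef2d were lower in YAP5SA and Myocd was higher, though the calls of Mef2d and Myocd were lost in some alternatives. Mef2a, Mef2c, Mrtfa and Mrtfb did not pass the test, and Srf was nearly level between the forms. Levels are TPM (transcript abundance scaled for gene length and depth). Each difference is that of YAP5SA over YAP5SA-S94A, on the log2(TPM + 1) scale, and a gene is said to have risen or fallen, or to be called, where its limma p adjusted over all 13420 tested genes lay under 0.05. Of the 8 factors 1 rose and 2 fell, against 17.4% of all tested genes that rose and 15.5% that fell. The share called, 37.5% of the 8, is near the 32.9% called over all genes and is no result about the set. For 7 of the 8 the libraries of the forms were fully apart, where 68.2% of all tested genes showed the same. Of these 7, the groups did not overlap with YAP5SA above in 3 (background 34.5%) and with YAP5SA below in 4 (background 33.8%). The median difference was −0.14 for the 8 and 0.00 over all genes.

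**Figure D1:**
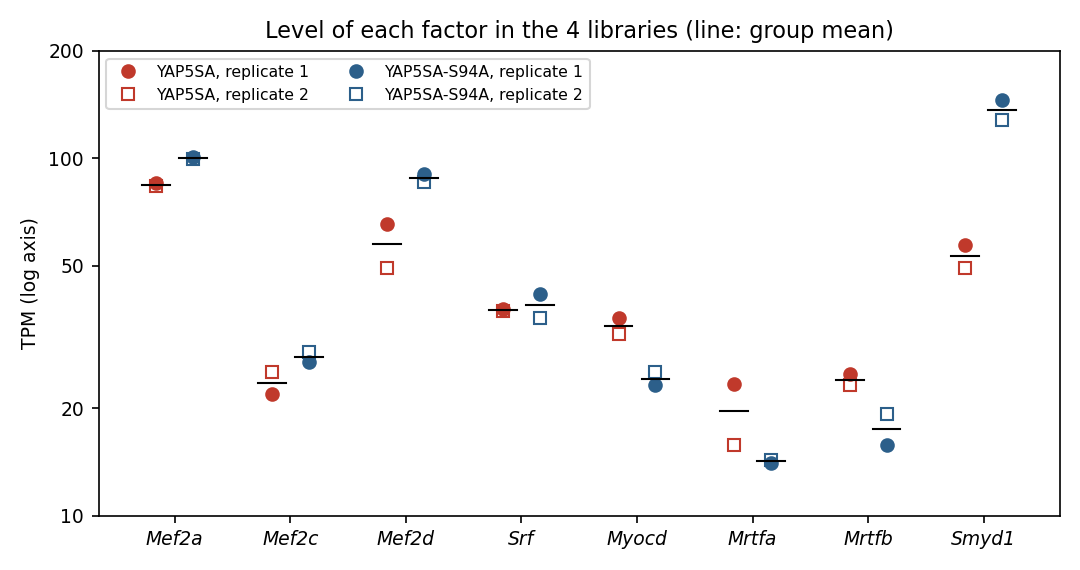
TPM (log axis) of each of the 8 factors in the 4 RNA-seq libraries, red for YAP5SA and blue for YAP5SA-S94A, with a line at each group mean. Smyd1 lies at 49.2 and 57.1 TPM in YAP5SA against 128 and 145 in YAP5SA-S94A, and Srf is the gene whose groups overlap.

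The factors were all expressed at moderate levels, from 14.1 TPM for Mrtfa to 145 TPM for Smyd1, and their order differed between the forms. In YAP5SA-S94A the order of mean levels was Smyd1, Mef2a, Mef2d, Srf, Mef2c, Myocd, Mrtfb and Mrtfa, and no 2 neighbours in that order overlapped between their libraries. In YAP5SA it was Mef2a, Mef2d, Smyd1, Srf, Myocd, Mrtfb, Mef2c and Mrtfa. There the libraries of Mef2d and Smyd1, of Mrtfb and Mef2c, and of Mef2c and Mrtfa overlapped. Differences between one factor and another were not tested in either form. The fourth MEF2 gene, Mef2b, stood at 0.277 to 0.854 TPM and was not tested.

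Smyd1 (chromosome 4, 103195330 to 103252989, minus strand, rn7) had the widest difference of the 8. Its level was 57.1 and 49.2 TPM in YAP5SA replicates 1 and 2 and 145 and 128 TPM in YAP5SA-S94A replicates 1 and 2. Both YAP5SA libraries thus lay far below both others, with means of 53.2 ± 5.61 and 137 ± 11.9 TPM (SD, n = 2). Smyd1 fell by 1.35 on the log2 scale (SE 0.12, limma adjusted p = 2.63e-04), to 0.389 of its level in YAP5SA-S94A. It was called lower in all 13 alternative analyses, with a highest limma adjusted p of 0.00707.

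Markers of heart muscle cells moved with Smyd1. Of 8 cardiomyocyte markers 7 fell in YAP5SA and 0 rose by limma, with Actn2 higher only at an unadjusted p under 0.05 (difference 0.28), and their summed level was 9479 and 9569 TPM in the YAP5SA libraries against 15720 and 15800 TPM in the others. Set against that sum, Smyd1 stood at 6.03 and 5.14 TPM per 1000 TPM of markers in YAP5SA and at 9.24 and 8.13 in YAP5SA-S94A, so the ratio did not overlap either. Tnnt2 made up most of that sum, at means of 6067 TPM in YAP5SA and 8093 TPM in YAP5SA-S94A, and fell by only 0.42. The ratio therefore rests largely on Tnnt2. Myh6 (−1.73) and Tnni3 (−1.55) fell more than Smyd1, while Mybpc3 (−1.21), Pln (−1.16), Ttn (−0.78) and Ryr2 (−0.60) fell less. The part of the marker difference in that of Smyd1 was not tested further. In such bulk libraries fewer muscle cells and less RNA per cell cannot be told apart, here and for the results that follow.

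Genes that act with SMYD1 or resemble it moved in both directions. Among 12 tested genes of the SMYD family and of SMYD1 partners 4 rose (33.3%, background 17.4%) and 3 fell (25.0%, background 15.5%), with a median of −0.10. Unc45b, the muscle myosin chaperone, stood at 70.1 and 65.8 TPM in YAP5SA against 135 and 136 TPM and fell by 0.99 (limma adjusted p = 4.09e-04). Hsp90aa1, an inducible chaperone that works with UNC45B on myosin, rose by 1.09 from 256 ± 15.9 to 550 ± 91.1 TPM (SD, n = 2). Unc45b and Hsp90aa1 thus diverged. Hsp90ab1, the other and more abundant HSP90 gene of the list, stood at means of 1324 TPM in YAP5SA and 1195 TPM in YAP5SA-S94A. It was not called (0.15, limma adjusted p = 0.227). Naca, whose muscle isoform binds SMYD1, rose by 0.56 (limma adjusted p = 0.00255), and Trim63, a muscle ubiquitin ligase, fell by 1.46 (5.65e-05). The other SMYD genes showed small differences: Smyd4 fell by 0.64, Smyd5 rose by 0.57, and Smyd2 and Smyd3, at −0.31 and −0.53, were not called (limma adjusted p = 0.0529 and 0.0605). The number that fell was 5 under quantile normalization, under median-of-ratios scaling and without mitochondrial genes, and the number that rose was 2 without YAP5SA-S94A replicate 2.

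All 3 MEF2 genes were lower in YAP5SA in every library, but only Mef2d passed the test. Mef2d (chromosome 2, 173606054 to 173635620, plus strand) stood at 65.6 and 49.4 TPM in YAP5SA and 90.4 and 85.9 TPM in YAP5SA-S94A. Its YAP5SA libraries differed from each other more than the others did, and still lay below both of them. Mef2d fell by 0.62 on the log2 scale (SE 0.15, limma adjusted p = 0.0166). The call was lost with no filter on low values (limma adjusted p = 0.0699) and without an intensity trend (0.0523), within a range of 6.35e-04 to 0.0699 over the 13 alternatives.

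Mef2a (chromosome 1, 120847874 to 120982488, minus strand), whose promoter holds the MEF2 box shown above, was the most abundant MEF2 gene. It stood at 85.1 and 83.4 TPM in YAP5SA and 101 and 99.7 TPM in YAP5SA-S94A. The replicates were close together and the groups apart, yet the difference of −0.25 (95% interval −0.47 to −0.03, not adjusted for the number of genes) was not called (limma adjusted p = 0.0852). Leaving out mitochondrial genes gave a call (−0.32, limma adjusted p = 0.0353), and without YAP5SA replicate 1 the difference was −0.26. Mitochondrial genes held 7.53% and 10.2% of the TPM of the YAP5SA libraries and 12.6% and 14.0% of that of the others.

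Mef2c (chromosome 2, 13973299 to 14136065, plus strand), the MEF2 gene needed first in the embryonic heart, was the least abundant of the 3. Its level was 21.9 and 25.2 TPM in YAP5SA and 26.9 and 28.8 TPM in YAP5SA-S94A. The groups were adjacent without overlap, and the difference of −0.23 (95% interval −0.55 to 0.08) was not called (limma adjusted p = 0.218), nor in any of the 13 alternatives.

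Together the MEF2 transcripts summed to 173 and 158 TPM in YAP5SA and 218 and 214 TPM in YAP5SA-S94A, a ratio of 0.764. The make-up of the sum shifted somewhat: Mef2d took 38.0% and 31.2% of it in YAP5SA against 41.5% and 40.1%, and Mef2a 49.3% and 52.8% against 46.2% and 46.5%. The share of Mef2c, between 12.3% and 15.9%, overlapped between the forms. The two-sided exact permutation p of the sum was 0.333, the lowest value possible with 2 libraries on each side.

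**Figure D2:**
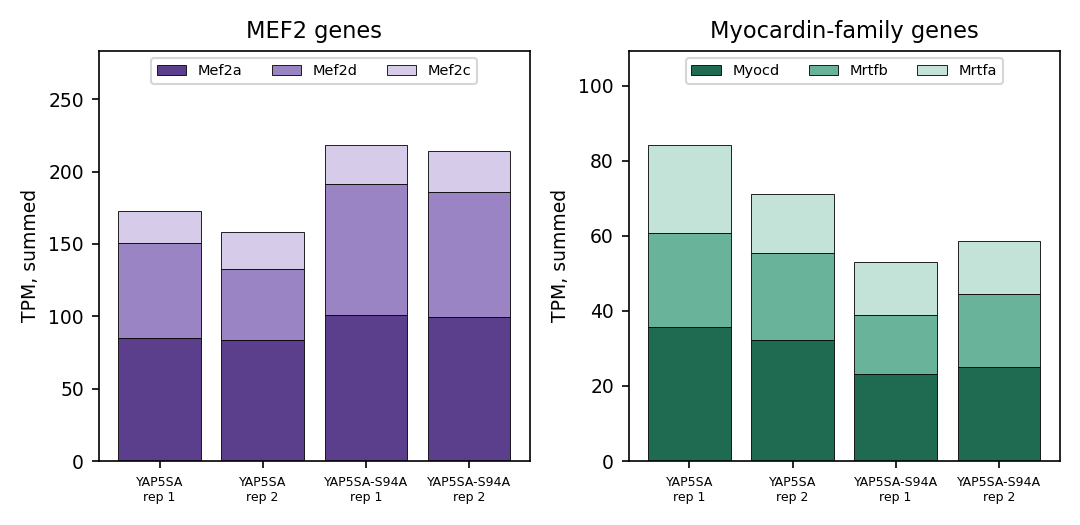
Stacked TPM of the MEF2 genes (left) and of the myocardin-family genes (right) in each of the 4 RNA-seq libraries, on separate vertical scales that start at 0. The MEF2 sum is lower in both YAP5SA libraries (173 and 158 against 218 and 214 TPM) and the myocardin-family sum higher (84.1 and 71.2 against 53.0 and 58.7 TPM).

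Genes that MEF2 proteins are known to activate in muscle fell more often than they rose. Of 33 tested genes of this list 13 fell (39.4%, background 15.5%) and 7 rose (21.2%, background 17.4%), with a median of −0.29. The leading decreases were in genes of muscle metabolism and contraction. Eno3, the muscle enolase, stood at 122 and 116 TPM in YAP5SA and 397 and 397 TPM in YAP5SA-S94A and fell by 1.73 (limma adjusted p = 3.08e-05). Slc2a4, the insulin-responsive glucose transporter, fell by 1.82 from 102 ± 1.63 to 28.2 ± 0.88 TPM (SD, n = 2). Mb, which encodes the oxygen-binding protein myoglobin, fell by 1.56, and Myh6, the alpha myosin heavy chain, by 1.73. The members that rose, named here after their values were seen, were the natriuretic peptide genes Nppa (1.36) and Nppb (2.10), the calcium buffer gene Casq2 (0.93), Xirp1 (0.99), Dtna (1.58), Nav2 (1.08) and Klf2 (1.44). Myh6, Actn2, Mybpc3 and Tnni3 of this list are also cardiomyocyte markers, whose summed level was given above, and Myh6 overlaps genes on the other strand with means of 10.6 and 5.49 TPM.

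The list was chosen as known MEF2 targets, so an excess of MEF2 boxes in it is no result of these data. A MEF2 box was present in the 250-base window of 9 of the 26 tested listed genes with a window. This share is 34.6%, against 1.61% of 10491 tested genes with a window. The 4 such windows whose genes were called are shown to set the sites beside the values, each with 10 bases on either side of the box in capitals.
Mybpc3: tggaatttgtCTATATTTAGcaggtggcta
Cox6a2: gagaaagtccCTAAAAATAGccatccatgt
Xirp1: tccacaagccCTAAAAATAAccagaccact
Casq2: attgcatgatTTATTTTTAGcccgaaacaa
They lie at chr3:97550942-97550971 (+), chr1:192219747-192219776 (-), chr8:128635074-128635103 (-) and chr2:192214397-192214426 (+) in GRCr8, with the strand in brackets. Mybpc3 and Cox6a2 fell, by 1.21 and 0.38 on the log2 scale, while Xirp1 and Casq2 rose, by 0.99 and 0.93. Genes with a box thus differed in direction, and 9 of the 17 listed genes without an exact match in the window fell. Over all tested genes with a window, those with a MEF2 box rose in 24.9% and fell in 21.9% of cases, against 17.7% and 15.5% of all.

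Among the regulators of MEF2 and SRF, the deacetylase gene Hdac9, the kinase gene Camk2a and the SRF antagonist Hopx fell, and Rcan1 rose. Hdac9, a repressor that binds MEF2 and is itself a MEF2 target, stood at 6.66 and 4.62 TPM in YAP5SA and 27.7 and 25.5 TPM in YAP5SA-S94A, a fall of 2.07 on the log2 scale (limma adjusted p = 2.85e-04). Camk2a, a calcium-dependent kinase subunit better known from neurons, fell by 1.91 from 26.5 ± 2.76 to 6.32 ± 0.83 TPM (SD, n = 2). Hopx, a homeodomain-only protein that restrains SRF in the heart, stood at 35.9 and 35.4 TPM in YAP5SA and 115 and 102 TPM in YAP5SA-S94A and fell by 1.58 (limma adjusted p = 8.73e-05). Rcan1, a calcineurin regulator, rose by 1.37 from 53.6 to 140 TPM. Hdac9, Camk2a, Hopx and Rcan1 were each separated between the forms in every library. Other genes of the deacetylase and kinase families differed less. Hdac5 fell by 0.89 and Camk2g by 0.55, while Hdac4 (−0.22), Hdac7 (0.38), Camk2b (0.39) and Camk2d (−0.11) were not called. Camk2d was the most abundant Camk2 gene of the list, at means of 92.1 TPM in YAP5SA and 99.8 TPM in YAP5SA-S94A. In all, 3 of 31 tested regulators rose (9.68%, background 17.4%) and 8 fell (25.8%, background 15.5%), with a median of −0.12, and the number that rose was 6 without YAP5SA replicate 2.

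Srf (chromosome 9, 14426453 to 14435734, plus strand), whose own promoter holds the 2 CArG boxes, showed no detectable difference. It stood at 37.9 and 37.5 TPM in YAP5SA and 41.8 and 35.8 TPM in YAP5SA-S94A, so the YAP5SA libraries lay between the others. The difference was −0.04 (95% interval −0.33 to 0.25, limma adjusted p = 0.844). Its sign changed without YAP5SA-S94A replicate 1 (0.07). A p that misses the threshold does not show that the levels were equal.

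Transcripts of the 3 SRF coactivators of the myocardin family were each higher in both YAP5SA libraries, and Myocd was called. Myocd (chromosome 10, 49833219 to 49928806, minus strand) stood at 35.8 and 32.2 TPM in YAP5SA and 23.2 and 25.2 TPM in YAP5SA-S94A. The groups were apart, and Myocd rose by 0.47 on the log2 scale (SE 0.13, limma adjusted p = 0.0263), a ratio of 1.41. This call was lost with FPKM (limma adjusted p = 0.0530), with no filter (0.0541) and without an intensity trend (0.0505). It was lost also without YAP5SA-S94A replicate 1 (difference 0.42) or replicate 2 (0.53), where that group has no spread of its own.

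Mrtfb (chromosome 10, 1116315 to 1278106, plus strand) stood at 24.9 and 23.2 TPM in YAP5SA and 15.7 and 19.2 TPM in YAP5SA-S94A. Its groups did not overlap, and the difference of 0.44 (95% interval 0.10 to 0.79) was not called (limma adjusted p = 0.0560). With median-of-ratios scaling it was called higher (limma adjusted p = 0.0458), and so it was with the replicate number as a block (0.0329). With each library left out in turn the difference ranged from 0.31 to 0.58.

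Mrtfa (chromosome 7, 112544305 to 112714418, minus strand) stood at 23.4 and 15.8 TPM in YAP5SA and 14.1 and 14.3 TPM in YAP5SA-S94A. One YAP5SA library was high and the other close to the YAP5SA-S94A level, and the difference of 0.41 (95% interval −0.05 to 0.87) was not called (limma adjusted p = 0.149). The value rests on replicate 1: without YAP5SA replicate 2 it was 0.68 and without YAP5SA replicate 1 it was 0.14. A group left with 1 library has no spread of its own, so no p is given for these values.

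The ratio of the group means was close among the 3, at 1.41 for Myocd, 1.38 for Mrtfa and 1.38 for Mrtfb. Their sum stood at 84.1 and 71.2 TPM in YAP5SA and 53.0 and 58.7 TPM in YAP5SA-S94A, and the share of each gene in the sum overlapped between the forms, with Myocd at 42.6% to 45.2%. Set against Srf, the coactivators stood at 2.22 and 1.90 TPM per TPM of Srf in YAP5SA and at 1.27 and 1.64 in YAP5SA-S94A. The two-sided exact permutation p of this sum was also 0.333.

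**Figure D3:**
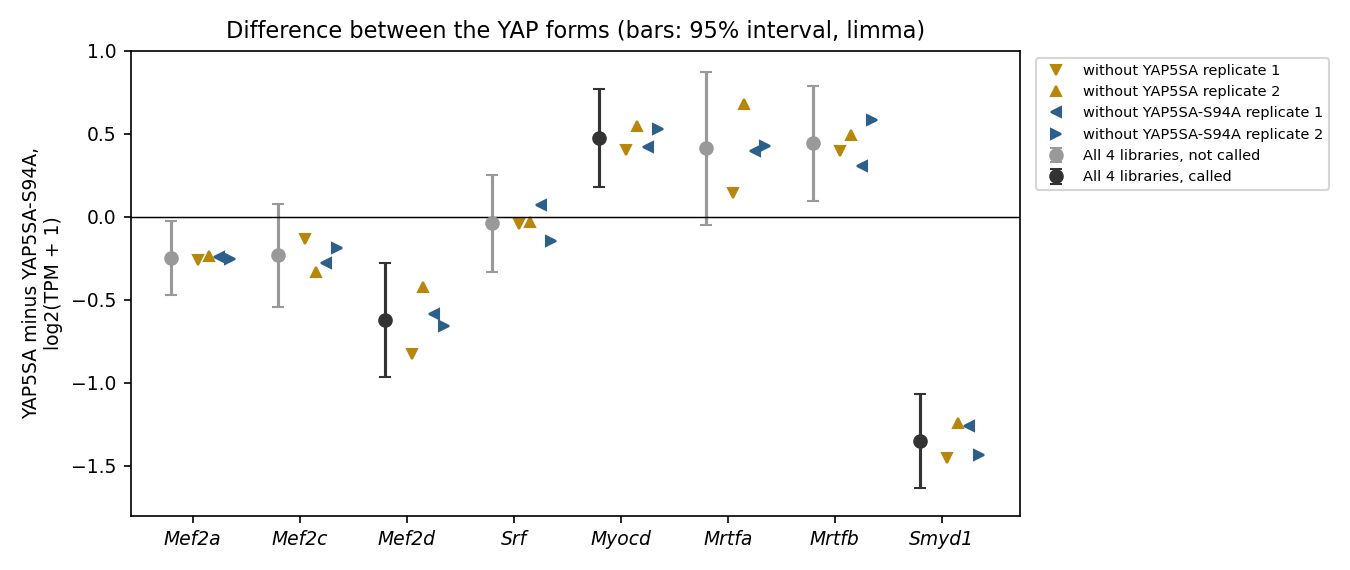
Difference of each factor on the log2(TPM + 1) scale, positive where higher in YAP5SA, with its 95% interval (circles, dark where called) and the value with each library left out in turn (triangles). Mrtfa spans 0.14 to 0.68 with a library left out, Mef2d −0.82 to −0.42 and Smyd1 −1.45 to −1.24.

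Cytoskeletal genes that MRTF and SRF are known to activate were mostly higher in YAP5SA. Of 40 tested genes 27 rose (67.5%, background 17.4%) and 2 fell (5.0%, background 15.5%), with a median of 0.63 against 0.00 over all genes. Fhl1, a LIM-domain protein of muscle, stood at 593 and 713 TPM in YAP5SA and 241 and 242 TPM in YAP5SA-S94A and rose by 1.43 (limma adjusted p = 1.30e-04). Cnn2, a calponin that binds actin, rose by 1.30 from 83.0 ± 6.52 to 206 ± 18.6 TPM (SD, n = 2). The smooth muscle genes Acta2 and Tagln had the smallest p of the list, with 4877 against 449 TPM and 1509 against 594 TPM. Fhl2 and Csrp2, both LIM-domain genes and named after their values were seen, fell by 0.74 and 0.43. Reads of the near-identical actin genes of the list (Acta1, Acta2, Actb, Actc1, Actg1 and Actg2) cannot be divided with certainty, and Cnn2 overlaps a gene on the other strand with a mean of 2.80 TPM. Several listed genes, Vcl and the actins among them, also respond to other factors, so the list does not isolate SRF.

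Of 8 markers of smooth muscle cells and pericytes 2 rose (25.0%, background 17.4%), Mcam by 1.27 and Smtnl2 by 1.79, and 0 fell by limma, 0 also at an unadjusted p under 0.05. Their median was 0.21, and Pdgfrb, Cspg4 and Kcnj8, at −0.02, −0.18 and −0.16, were not called. The markers had summed levels of 402 and 446 TPM in YAP5SA against 272 and 280 TPM in YAP5SA-S94A, of which Mcam made up 198 ± 5.18 and 81.7 ± 4.05 TPM (SD, n = 2), and their part in the result was not tested. Myh11, the smooth muscle myosin heavy chain, stood at 15.0 and 14.9 against 13.5 and 13.9 TPM, with no call (limma adjusted p = 0.547).

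The cytoskeletal list was chosen as known MRTF and SRF targets, so an excess of CArG boxes in it is no result of these data. A CArG box was found in the 250-base window of 6 of 36 tested genes of the cytoskeletal list (16.7%, against 1.24% of 10491 tested genes). They are shown, box in capitals and 10 bases on either side, because they carry the same kind of site as the Srf promoter while Srf itself was not called.
Acta1: tgcccaacacCCAAATATGGcttgggaagg
Actg1: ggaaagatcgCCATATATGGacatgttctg
Cnn2: cgcttccacgCCTTATAAGGgcatttgccc
Fhl1: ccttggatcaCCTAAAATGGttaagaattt
Lima1: ataggatgagCCATAAAAGGgaccgccagg
Fhl2: catttagagaCCAAAAATGGcttgcaggag
The sites lie at chr19:68784269-68784298 (-), chr10:106121022-106121051 (-), chr7:10370364-10370393 (-), chrX:139638384-139638413 (+), chr7:132880533-132880562 (-) and chr9:52954616-52954645 (-) in GRCr8. The first 5 genes rose, by 0.97, 0.72, 1.30, 1.43 and 1.02 on the log2 scale, and Fhl2 fell by 0.74. Of the 30 listed genes without an exact match in the window 19 rose and 1 fell. Boxes with a mismatch or outside the window were not counted, so these 30 genes may still hold one. An MCAT motif was in 13 of the 36 windows (36.1%, against 10.1% of tested genes), among them those of Acta1, Acta2 and Fhl2. Over all tested genes with a window, those with a CArG box rose in 23.8% and fell in 20.8% of cases and those with an MCAT motif did so in 24.5% and 13.2%, against 17.7% and 15.5% of all.

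Immediate-early genes of the other SRF branch, served by the ternary complex factors, were mostly higher in YAP5SA. Of 16 tested genes 10 rose (62.5%, background 17.4%), 1 fell (6.25%, background 15.5%) and 5 were not called, among them Junb at −0.16 and Mcl1 at −0.28, with a median of 0.68. Klf4, a zinc-finger factor, stood at 90.3 and 82.1 TPM in YAP5SA and 43.44 and 39.02 TPM in YAP5SA-S94A and rose by 1.05 (limma adjusted p = 6.41e-04). Klf6 rose by 0.68 and the antiproliferative gene Btg2 by 0.84. Fos and Egr1 rose by 0.93 and 0.83, at means of 7.76 against 3.58 TPM and 18.4 against 9.96 TPM. Fosb, Egr3 and Egr4 had means under 1 TPM and were not tested. Ccn1, which led the list with 480 against 37.98 TPM, is also an established YAP/TEAD target. The gene that fell, named after its value was seen, was the nuclear receptor gene Nr4a1 (−1.55, limma adjusted p = 0.00487), a target of MEF2 as well as of SRF. Since listed genes such as Ccn1 and Nr4a1 also respond to other factors, the list does not isolate the ternary complex branch. Of the ternary complex factors, Elk1 fell by 0.87 (limma adjusted p = 0.00299), and Elk3 and Elk4, at 0.23 and 0.03, were not called. The number of the list that rose was 6 without YAP5SA-S94A replicate 2, and the number that fell was 3 without YAP5SA replicate 1.

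Partner transcription factors of the heart were called only as lower, except without YAP5SA replicate 2, where 1 was called higher. Of 15 tested genes 5 fell (33.3%, background 15.5%) and 0 rose by limma (background 17.4%), 0 also at an unadjusted p under 0.05, with a median of −0.20. Tbx5, a T-box factor of the atria and left ventricle, stood at 7.92 and 5.55 TPM in YAP5SA and 19.5 and 21.3 TPM in YAP5SA-S94A and fell by 1.49 (limma adjusted p = 0.00123). Gata5 fell by 1.20, Prox1 by 0.99 and the ventricular gene Irx4 by 0.78. Gata4, Hand2 and Tbx20, which act with MEF2 and SRF on cardiac promoters, differed by 0.20, 0.02 and 0.15 and were not called. Nkx2-5, at −0.63, was not called either (limma adjusted p = 0.0734).

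**Figure D4:**
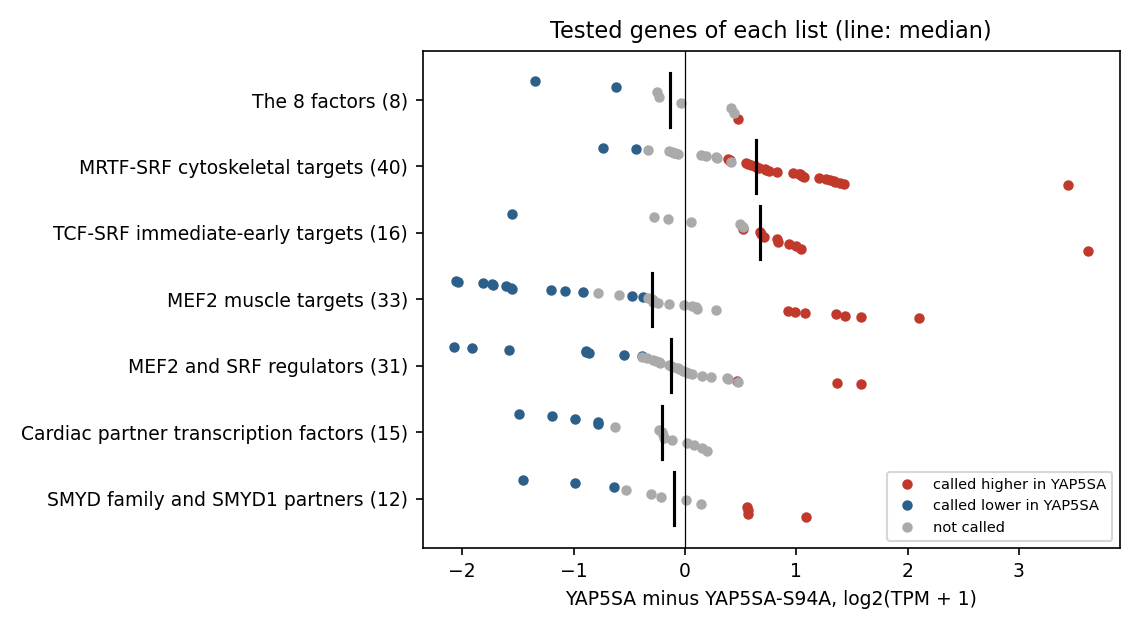
Difference of every tested gene on the log2(TPM + 1) scale, positive where higher in YAP5SA, for the 8 factors and for the 6 lists, with the number of tested genes in brackets and a line at each median. Medians are 0.63 for the MRTF-SRF cytoskeletal targets and 0.68 for the immediate-early targets, and −0.29 for the MEF2 muscle targets.

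By pattern over the 4 libraries, the closest genes to each called factor were found by the Euclidean distance between centred log2(TPM + 1) values among 12534 other tested genes with a symbol. Closest to Smyd1 were Rbfox1, an RNA-splicing factor of muscle and brain (distance 0.0457), and the chemokine gene Cx3cl1 (0.0527). Rbfox1 stood at 0.786 and 0.558 TPM in YAP5SA and 3.35 and 2.96 TPM in YAP5SA-S94A. At such low levels the added 1 narrows the difference, and its ratio of mean TPM was 0.213 against 0.389 for Smyd1. Closest to Myocd were the xylosyltransferase gene Xylt1 (0.0149) and Bloc1s2 (0.0274), and closest to Mef2d were Slc37a4, the glucose-6-phosphate transporter gene (0.0374), and Nudt16l1 (0.0377). With 4 libraries in 2 groups, such closeness reflects little more than a like difference on this scale and a like replicate spread.

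The libraries held 4.02 to 5.10 gigabases of aligned sequence, and FPKM times gigabases put the per-base coverage of the factors between 23.9 (Mrtfa) and 290 (Smyd1). The deposited coverage column is lower for some factors, at 4.14 to 6.04 for Mef2c and 3.77 to 6.08 for Mrtfb, and why the measures differ was not tested. Yap1 stood at 105 and 99.1 TPM in YAP5SA and 117 and 121 TPM in YAP5SA-S94A, which does not check the labels, since how much of the construct this row captures is unknown. The YAP/TEAD targets Ccn2 and Ankrd1 stood 3.88-fold and 4.69-fold higher in YAP5SA. Cardiomyocyte markers were abundant, with Tnnt2 at 5811 to 8190 TPM, but fibroblast markers summed to 6748 to 8527 TPM in YAP5SA and 6888 to 7243 in YAP5SA-S94A, and endothelial markers to 27.3 to 29.0 against 38.3 to 38.5 TPM. Immune markers summed to 516 to 534 TPM against 809 to 810 TPM with the T-cell gene Cd3e at 0 throughout, but within these sums single markers went both ways. Lyz2, which made up 433 and 712 TPM (means) of the immune sum, fell while Csf1r rose from 13.8 to 37.8 TPM, and of the endothelial markers Kdr fell from 20.6 to 3.65 TPM while Tek rose from 3.68 to 11.6 TPM. Among fibroblast markers Dcn and Postn fell, by 0.67 and 0.59, and 0 rose. Col1a1, Col1a2 and Col3a1, which made up most of the fibroblast sum, were not called. Summed levels were, for epicardial and mesothelial markers, 76.3 to 91.3 against 36.3 to 41.1 TPM. Upk3b, Krt19 and Msln of these markers rose, by 3.75, 2.19 and 0.70, while Upk1b and Wt1, at −0.37 and −0.20, were not called. No skeletal myoblast marker reached a mean of 1 TPM. Since SRF, MRTF and MEF2 genes are also expressed in non-muscle cells, the part of these cells in the differences above was not tested. Genes on the opposite strand overlap Mef2c, Myocd and Mrtfb, at mean levels of 0, 0.213 and 0.733 TPM against 25.7, 29.1 and 20.8 TPM for the factors.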

How the data were processed

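Poly(A) RNA of 4 libraries, 2 per YAP form, was measured with directional RNA-seq, while CUT&RUN data of the series (6 samples) were left aside as not analysed here. Per the submitters' processing notes, the tools included fastp, HISAT2 2.2.1 and StringTie 2.2.1 with build rn7. Settings and the use of strand in counting are not given in the sources used here. The deposited TPM and FPKM values were computed by the authors, and the deposited coverage column, per the file headers, is per-base and not scaled for depth. Aligned gigabases were read from each table as the median of the coverage to FPKM ratios lying close to the largest, among genes above a low FPKM floor.

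TPM was summed over rows sharing a gene name. Names with a mean of at least 1 TPM (13420) were put on the log2(TPM + 1) scale and tested by limma 3.58.1 (R 4.3.3) with an intensity trend, residual degrees of freedom of 2 and prior ones of 5.09, with Benjamini-Hochberg adjustment and a threshold of 0.05. Family sums had an exact permutation test. In simulated data with 200 changed genes among 13420, 75% of log2 changes of 1 and 100% of changes of 2 were recovered, with 7 false calls among 180. Lists are described by counts and medians, with no set test, and 1 list is not reported here. Motifs were searched in 1 RefSeq window per symbol, by exact match only. The CArG box was CCWWWWWWGG and the MEF2 box YTAWWWWTAR, where W is A or T, Y is C or T and R is A or G. Python 3.11.15 was used for tables and figures.

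The factors and gene lists were chosen with earlier results of these data known. From each list the called genes ranking first by p, at most 4, are named, and for each called factor the 2 genes nearest in pattern, and others are given as named after their values were seen or to complete a group. Alternatives were another pseudocount, 2 other filters, FPKM, 3 other scalings, no intensity trend, a replicate block and each library left out. With a library left out its group has no spread of its own. Calls then rest on the spread of the other group and on that pooled over genes.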

Additional observations from a re-analysis of the deposited data

How the results depend on the processing

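Of 104 alternative values for the differences of the 8 factors, 91 kept their direction and side of the threshold, 7 lost a call, 5 gained one and 1 changed sign. With no filter on low values Mef2d (−0.62) and Myocd (0.47) lost their calls, as they did without an intensity trend (−0.62 and 0.47), leaving 0 factors called higher and 1 lower in both. Myocd also lost its call with FPKM (0.42, 0 called higher). Mrtfb gained a call with median-of-ratios scaling (0.44, 2 called higher), and Mef2a with the mitochondrial chromosome left out (−0.32, 3 called lower). With that chromosome left out the log2 ratio of the MEF2 sum was −0.46 in place of −0.39.

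With the replicate number as a block Mrtfb was called (0.44, limma adjusted p = 0.0329), 2 factors were called higher, 2 immediate-early genes lower and 5 genes of the SMYD list lower. The block uses the replicate numbers of the sample titles. The library names carry other numbers, under which YAP5SA replicate 2 and YAP5SA-S94A replicate 1 share a number and the other two libraries share none, so no block can be built on them. The labels tie neither numbering to a shared culture or day, and libraries with the same title number deviated together with a correlation of 0.10 across genes, so they were not treated as pairs.

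Among the lists, cardiac partner factors called lower numbered 3 with no filter, cytoskeletal targets called lower 1 without an intensity trend, immediate-early targets called lower 2 with quantile normalization and with the mitochondrial chromosome left out, and SMYD-list genes called lower 5 under those and median-of-ratios scaling.

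Without YAP5SA-S94A replicate 1 Srf changed sign, at 0.072. With each library left out in turn, the differences ranged from −0.26 to −0.23 for Mef2a, −0.33 to −0.14 for Mef2c, −0.82 to −0.42 for Mef2d, −0.15 to 0.07 for Srf, 0.40 to 0.55 for Myocd, 0.14 to 0.68 for Mrtfa, 0.31 to 0.58 for Mrtfb and −1.45 to −1.24 for Smyd1. The log2 ratio of the MEF2 sum ranged from −0.45 to −0.33 and that of the myocardin-family sum from 0.35 to 0.59. Factors called ranged from 0 to 2 higher and 2 to 3 lower, and all genes called from 1700 to 2610 higher and 1312 to 2739 lower. Called list members ranged, higher and lower, from 23 to 30 and 1 to 3 for cytoskeletal targets, 6 to 12 and 1 to 3 for immediate-early targets, 7 to 10 and 11 to 16 for MEF2 targets, 2 to 6 and 6 to 9 for regulators, 0 to 1 and 4 to 6 for cardiac partners, and 2 to 4 and 2 to 4 for the SMYD list. Since a group reduced in this way has no spread of its own, its calls are not on a par with those from all 4 libraries. The causes of these shifts were not tested. How far depth limits the calls was not tested.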
